A study of Mus musculus with 12 samples.

Results

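The genes of the proteasome were examined as 55 probe sets of 43 genes, out of 12422 probe sets and 8251 genes read by the array. A probe set, a group of short probes against 1 transcript, was a member when its annotation named a single gene whose symbol begins with Psma, Psmb, Psmc, Psmd, Psme, Psmf or Psmg and a digit. The immunoproteasome genes Psmb8, Psmb9 and Psmb10 were not members. The 43 genes were 7 alpha and 7 beta subunits of the core, 6 ATPases and 3 other subunits of the base, 8 lid subunits, 7 assembly chaperones and 3 activators. Psmc3ip and Psme3ip1 also met the rule, but they are named for proteins they bind and are not subunits. Both were kept among the member genes, and Psme3ip1, which could be tested, is included in the counts of tested genes. Psma8, Psmb11 and Psmf1 were not analysed here, nor was Psme2, because the 2 probe sets that name it name Psme2b as well.

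RNA came from whole lung of A/J mice, an inbred strain from the Jackson Laboratory that is prone to lung tumours, and all mice were controls that had received saline and no other agent per the labels. The earlier group was taken 24 to 26 weeks after the injection on 5 arrays: AJ1, AJ2 and AJ4 with LZ2 and LZ3. The later group was taken 42 weeks after it, on 7 arrays: LZ22 to LZ25 with LZ61 to LZ63. The labels state neither age at injection nor sex, do not explain the prefixes AJ and LZ, and do not say that each sample is a separate animal. Values are MAS5 signals, a linear intensity with mismatch probe signal subtracted, which the authors had scaled to 1 level, a 2% trimmed mean of 500.3. In whole tissue, fewer cells of a type and less RNA per cell cannot be told apart. The 3 AJ arrays shared a run day per the run records, as did the pair LZ2 and LZ3, the set LZ22 to LZ25 and the set LZ61 to LZ63. As no day holds both time points, day and time point cannot be told apart in full, and a within-day value does not exist.

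Lung markers were present on all 12 arrays, with summed signals of 38356 to 70608 for 3 type 2 cell genes, 26732 to 50556 for 2 club cell genes, 14706 to 24552 for 2 type 1 cell genes and 5088 to 8303 for 3 endothelial genes. Array LZ63 stood apart, with a summed signal of 51225 for 8 skeletal muscle genes against 897 to 1793 on the others, and 19929.6 for 4 squamous genes against 252 to 531. On LZ22 and LZ24 the sum of 8 cardiac muscle genes was 1983 and 1920.0, against 7695 to 42561 on the other arrays. Of these markers 0 values were at 0. Values without LZ22, LZ24 and LZ63 are given where they change a call.

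The proteasome degrades proteins that carry ubiquitin chains. Its core is a barrel of stacked rings, in which the outer alpha rings form the gate and the inner beta rings hold the protease sites. The regulatory particle docks on the alpha ring: the base, with its ATPases, unfolds substrates and threads them through the gate, and the lid removes ubiquitin. Activators such as Psme1, Psme3 and Psme4 can dock in place of the regulatory particle. Because subunits are needed in fixed ratios, their genes are known to be induced together when the proteasome is inhibited, in mammals through the transcription factor Nfe2l1 at antioxidant response elements. Cytokines such as interferon gamma replace the protease subunits by Psmb8, Psmb9 and Psmb10.

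Members were bright and steady in these lungs. Of the 43 genes, 40 had at least 1 probe set (46 in all) past the filter on dim signals, a mean signal of about 108. Over the 12 arrays, the median standard deviation of log2 signal was 0.18 for the 40 genes and 0.26 for all 7453 tested probe sets. The highest array read less than 2-fold above the lowest in 32 of the 40 genes (80%), against 61.7% of all tested probe sets. The members were also brighter, with a median mean signal of 1344 against 496, and the part of brightness in the smaller spread was not tested. Psmb4, a core beta subunit without a protease site, varied least, with a standard deviation of 0.12 and signals from 3001 to 3800.3. Psmg2, which with Psmg1 guides the building of the alpha ring, varied most, with a standard deviation of 0.47 and signals from 110.2 on LZ62 to 363 on LZ25.

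**Figure D1:**
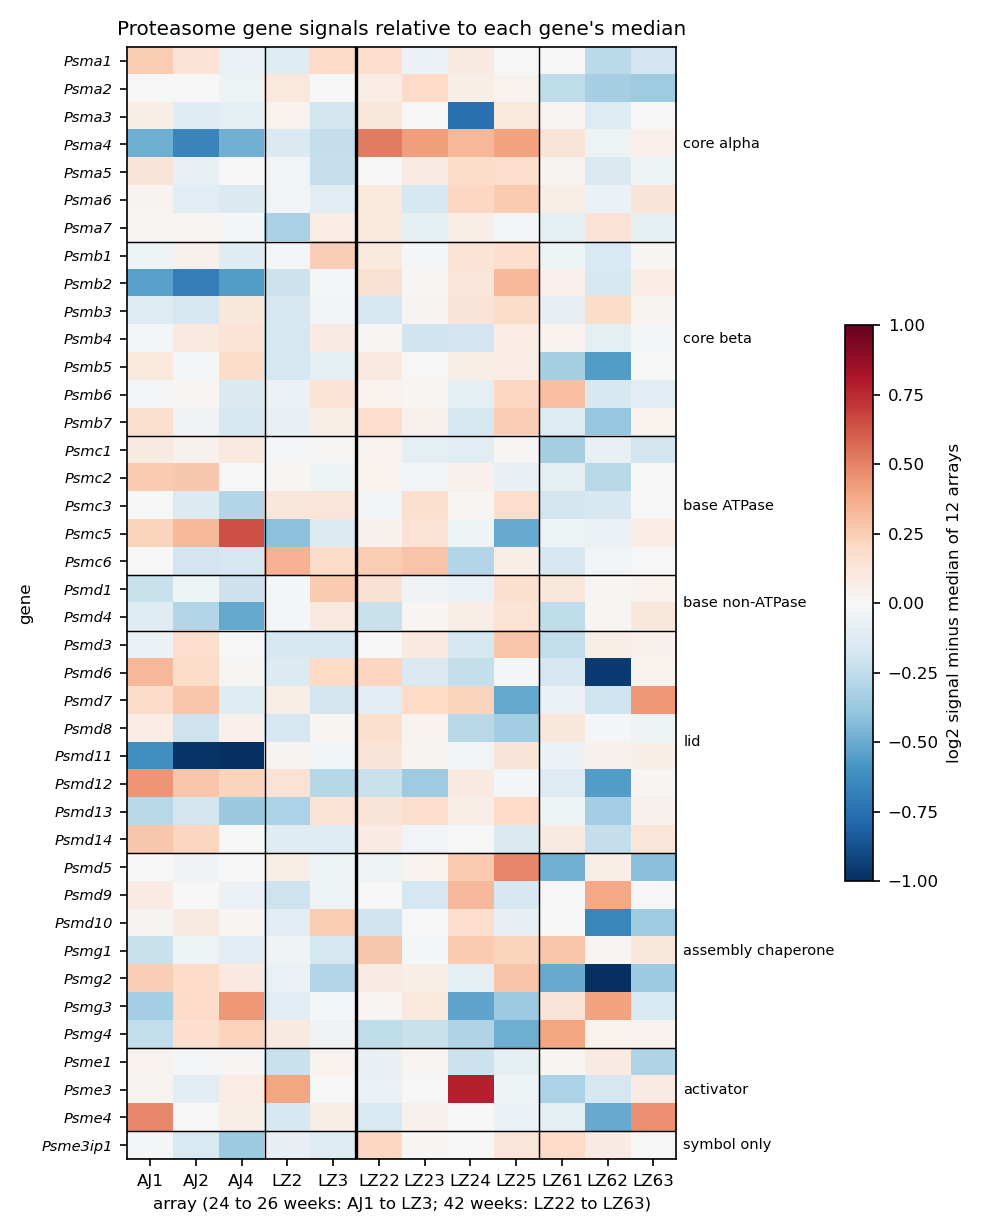
Each row is 1 of 40 proteasome genes by class and each column an array; colour is log2 signal minus the gene's median over 12 arrays, on a scale that ends at -1 and 1. Most rows are pale, while Psma4, Psmb2 and Psmd11 are low on AJ1, AJ2 and AJ4, and LZ62 has the lowest reading of 12 genes.

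In the proteasome genes as a whole, shifts between arrays were small, but larger than those of all tested probe sets. The median over the 40 genes, relative to each gene's own median, ran from -0.11 on LZ62 to 0.07 on LZ25 (log2), and the median of all tested probe sets from -0.09 on LZ63 to 0.03 on AJ2. The standard deviation of these medians over the 12 arrays was 0.05 and 0.03. A median of fewer genes also varies more, and the part of this was not tested. LZ62 gave the lowest reading of 12 of the 40 genes (30%), where 10.1% of all tested probe sets were lowest. They included the chaperones Psmg2 and Psmd10, the lid subunits Psmd6, Psmd12 and Psmd14, and the beta subunits Psmb1, Psmb5, Psmb6 and Psmb7. LZ25, on the other day of the same time point, gave the highest reading of 11 genes (27.5%, against 4.48% of all tested probe sets). LZ63, the array with muscle and squamous transcripts, was lowest for 2 of the 40 genes (5%), although 21.1% of all tested probe sets were lowest there.

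The main comparison asked which transcripts differ between the time points. None of the 40 genes passed the limma test at an adjusted p under 0.05, where 0.0805% of all tested probe sets did, and 0 passed by an exact permutation test, where the smallest adjusted p was 0.162. The log2 differences, 42 weeks minus 24 to 26 weeks, ran from -0.33 in Psmd12 to 0.66 in Psma4, with a median of -0.02 against -0.04 for all tested probe sets; the sign of this median changed in 5 of 27 alternative settings. They were positive in 17 genes and negative in 23, against 3213 positive and 4240 negative among all 7453 tested probe sets. Their median size was 0.10, where the median standard error was 0.11. An unadjusted p under 0.05 was found for 6 genes (15%, against 14.7% of all tested probe sets): Psma4, Psmb2, Psmd11, Psmg1 and Psme3ip1, with higher means at 42 weeks, and Psmd12, with a lower mean. The groups did not overlap in 3 genes (7.5%, against 1.5% of all tested probe sets): Psma4, Psmg1 and Psme3ip1, a member by its symbol only. In each of these all 7 later arrays read above all 5 earlier ones, as in 0.322% of all tested probe sets.

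**Figure D2:**
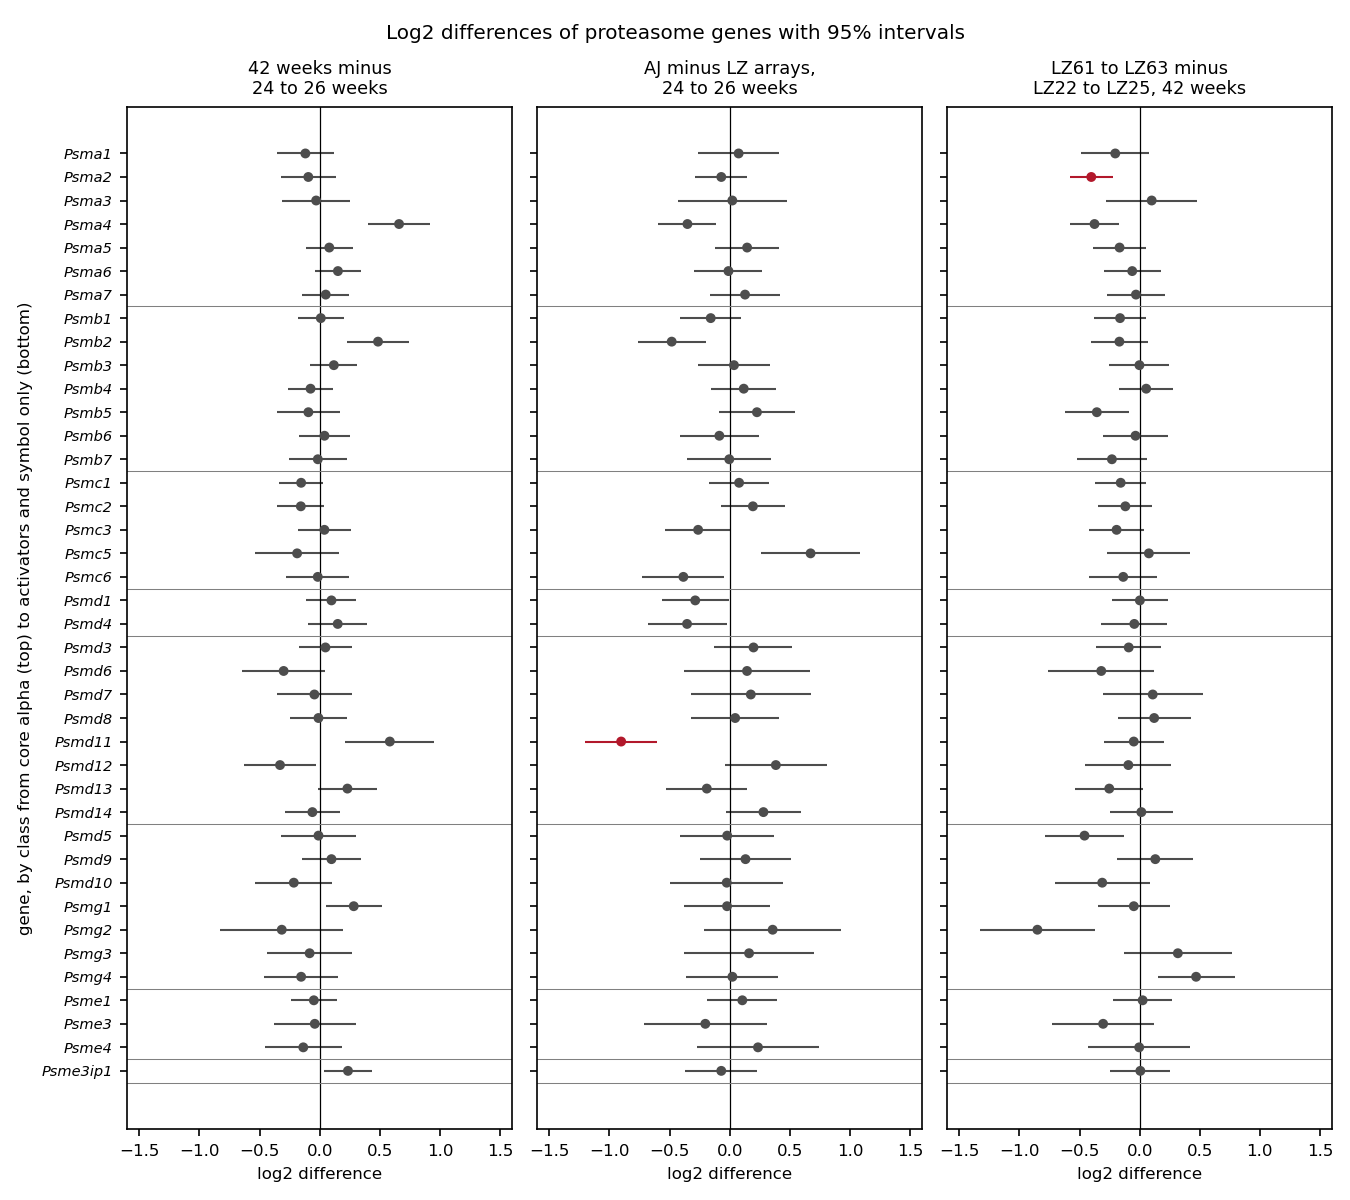
Log2 differences (x axis) with 95% intervals for 40 proteasome genes (y axis, by class) in the comparison of time points and in both comparisons within a time point; red marks an adjusted p under 0.05. Psmd11 is red in the middle panel and Psma2 in the right panel, and Psma4 has the highest point of the left panel at 0.66.

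By class, the differences between the time points were small and lay on both sides of zero. The median log2 difference was 0.02 for the 14 core genes, with 8 positive and 6 negative. It was 0.05 for the alpha and 0.01 for the beta subunits. In the base, the 5 ATPases had a median of -0.15, with 4 negative, while the other base subunits Psmd1 and Psmd4 read 0.10 and 0.15. The 8 lid genes had a median of -0.03, the 7 chaperones -0.08 and the 3 activators -0.05. The median standard error for 1 gene was 0.11. In each class 0 genes were called, where 0.0805% of all tested probe sets were, so the count does not set the classes apart.

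Psma4 encodes an alpha subunit whose end takes part in the gate of the core. Its single probe set, 97459_at, read 1892 on AJ1, 1681 on AJ2, 1907 on AJ4, 2407 on LZ2 and 2248.5 on LZ3. At 42 weeks it read 3811 on LZ22, 3554 on LZ23, 3338 on LZ24 and 3518 on LZ25, and 2908 on LZ61, 2569.6 on LZ62 and 2745 on LZ63. The later arrays all lay above the earlier ones, and each run day formed a cluster of its own. The mean was 2027 ± 294 (SD, n = 5) at 24 to 26 weeks and 3206 ± 467 (SD, n = 7) at 42 weeks, a ratio of 1.58 between mean log2 levels. On the log2 scale the gene differed by 0.66 (standard error 0.12, 95% interval 0.40 to 0.92), which did not pass the test (limma adjusted p = 0.0569). For this gene alone, exact permutation of the arrays, two-sided, gave p = 0.00126, the smallest that 5 against 7 arrays allow, or 0.162 after adjustment over all tested probe sets.

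Within each time point the Psma4 signal also differed by day. AJ1, AJ2 and AJ4 averaged 1827 ± 127 (SD, n = 3), below LZ2 and LZ3 at 2328 ± 112 (SD, n = 2), a log2 difference of -0.35 (limma adjusted p = 0.118). LZ61 to LZ63 averaged 2741 ± 169 (SD, n = 3), below LZ22 to LZ25 at 3555 ± 195 (SD, n = 4), a difference of -0.38 (adjusted p = 0.0653). Neither passed the test. The difference between time points was 0.80 against the AJ arrays alone (adjusted p = 0.00569) and 0.45 against LZ2 and LZ3 alone (adjusted p = 0.911). With run day as a random block, it was 0.63 (adjusted p = 0.292). Over 27 alternative settings it stayed between 0.45 and 0.82 and passed the test in 9, among them leaving out LZ2 (adjusted p = 0.022), LZ3 (0.0374), LZ62 (0.0285) or LZ63 (0.027). Without LZ22, LZ24 and LZ63 it was 0.63 (adjusted p = 0.13).

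**Figure D3:**
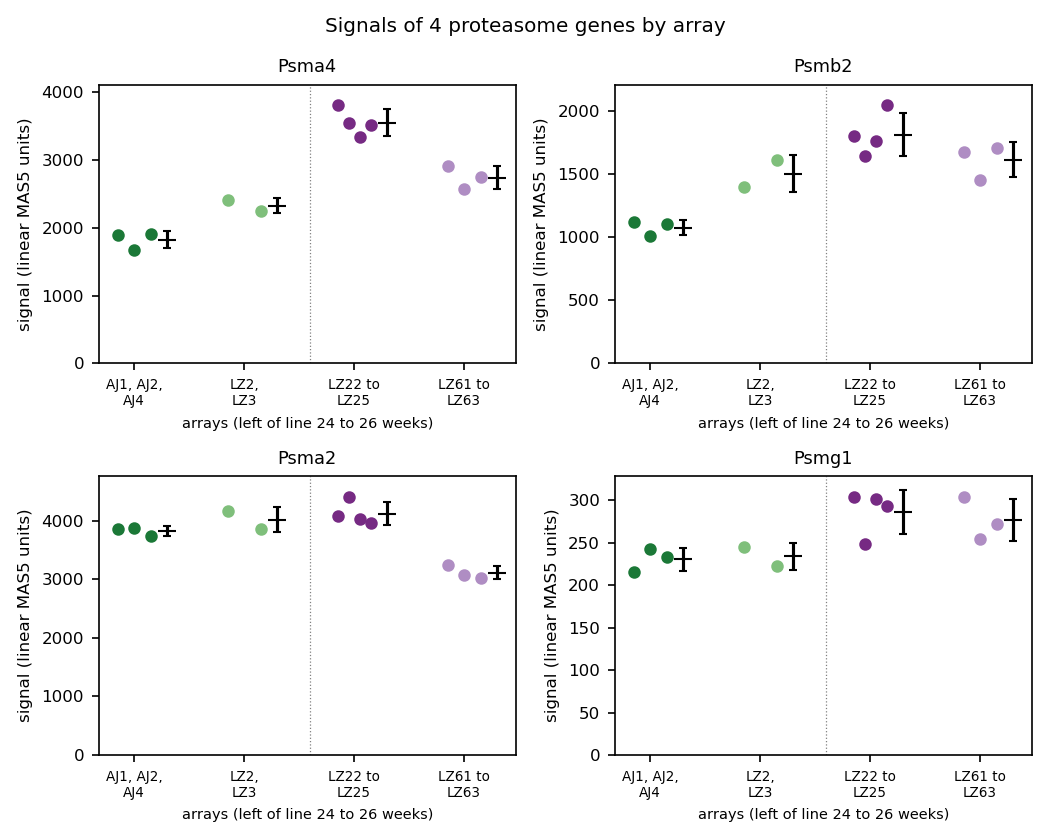
Signal (y axis, linear) of Psma4, Psmb2, Psma2 and Psmg1 on each array (points), grouped along the x axis by run day, with mean and SD as black bars. Psma4 reads between 2569.6 and 3811 on all later arrays and between 1681 and 2407 on the earlier ones, and Psma2 is lowest on LZ61 to LZ63.

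The promoters of the 3 genes that stood out in a comparison (Psma4, Psma2 and Psmd11) are shown because members of the complex are known to share control at this level. They are RefSeq sequences of build GRCm38.p6, 250 bases before to 50 bases after a transcript start, all on the plus strand, for Psma4 chr9:54950609-54950908, for Psma2 chr13:14612992-14613291 and for Psmd11 chr11:80428365-80428664. Capitals mark a CCAAT box.
Psma4: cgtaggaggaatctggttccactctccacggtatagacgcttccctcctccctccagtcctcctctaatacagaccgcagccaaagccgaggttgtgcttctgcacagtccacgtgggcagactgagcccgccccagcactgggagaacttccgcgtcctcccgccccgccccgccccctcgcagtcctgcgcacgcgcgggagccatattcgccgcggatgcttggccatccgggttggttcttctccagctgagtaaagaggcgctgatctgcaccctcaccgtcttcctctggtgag
Psma2: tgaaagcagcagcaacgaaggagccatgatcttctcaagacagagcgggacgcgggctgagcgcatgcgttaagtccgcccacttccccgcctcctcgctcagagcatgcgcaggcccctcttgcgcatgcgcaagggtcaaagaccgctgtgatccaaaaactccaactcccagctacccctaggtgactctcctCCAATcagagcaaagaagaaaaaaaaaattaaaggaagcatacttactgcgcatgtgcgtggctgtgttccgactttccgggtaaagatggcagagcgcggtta
Psmd11: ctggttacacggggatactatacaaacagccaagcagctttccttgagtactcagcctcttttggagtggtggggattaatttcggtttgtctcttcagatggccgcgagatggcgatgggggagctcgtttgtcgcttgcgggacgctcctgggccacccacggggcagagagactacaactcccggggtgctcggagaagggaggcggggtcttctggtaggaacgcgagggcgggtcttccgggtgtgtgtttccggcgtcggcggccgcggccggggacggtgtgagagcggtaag
The antioxidant response element core was searched as TGACNNNGC and the CCAAT box as CCAAT, on both strands. The Psma4 and Psmd11 windows held neither, and the Psma2 window held 1 CCAAT box, which begins at position -54. Of the 43 member genes, 36 had a promoter in the table. The core of the element was found in 6 of these (16.7%: Psmb5, Psmb6, Psmc6, Psmd9, Psmd12 and Psme4), against 14% of all 27025 genes with a promoter. CCAAT was found in 14 of the 36 (38.9%), against 41.1% of all. A match of these letters is a description and does not show a bound site.

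Of the other alpha subunits, 0 had an unadjusted p under 0.05 between the time points, where 14.7% of all tested probe sets did. Psma1 read 516 ± 57.8 (SD, n = 5) at 24 to 26 weeks and 475 ± 49.5 (SD, n = 7) at 42 weeks. Psma3 read 4982 ± 359 and 4951 ± 867, and its lowest signal, 3094, on LZ24 lay well under the next of 4577 on LZ3. Its probe set, like those of Psmb4, Psmb7, Psmc3 and Psmd12, is of a kind the maker marks as shared by a sequence family, so related transcripts may add to its signal. Psma5 read 1236 ± 110 and 1305 ± 107, and Psma6 read 3669 ± 183 and 4089 ± 407. Psma7 read 1928 ± 196 and 1992 ± 145. In these 5 genes the groups overlapped, and the differences lay between -0.12 and 0.15 on the log2 scale.

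Psma2 was the member that differed between both sets of arrays at 42 weeks. Its probe set, 100733_at, read 4077 on LZ22, 4410.3 on LZ23, 4026 on LZ24 and 3963.5 on LZ25. It read 3241 on LZ61, 3077 on LZ62 and 3027 on LZ63, so that the sets did not overlap. The earlier arrays, at 3735.5 to 4170.0, overlapped with LZ22 to LZ25 and lay above LZ61 to LZ63. The mean was lower on LZ61 to LZ63, at 3115 ± 112 (SD, n = 3) against 4119 ± 200 (SD, n = 4). On the log2 scale the gene differed by -0.40 (standard error 0.08, 95% interval -0.58 to -0.22; limma adjusted p = 0.0373). The call was lost when any 1 of the 12 arrays was left out (adjusted p of 0.0527 to 0.0924), with differences that stayed between -0.43 and -0.37. Without LZ22, LZ24 and LZ63 the difference was -0.40 (adjusted p = 0.114). An exact permutation test allows no p below 0.0286 with 3 against 4 arrays, and gave that value for this gene. Between the time points Psma2 differed by -0.09 (adjusted p = 0.724), and between the AJ and LZ arrays by -0.07 (adjusted p = 0.783).

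Across that comparison of LZ61 to LZ63 with LZ22 to LZ25, 1 of 40 genes was called (2.5%, against 1.5% of all tested probe sets). The day of the run and the number range are the same split, and LZ63 is among these arrays. An unadjusted p under 0.05 was found for 6 genes (15%, against 19.8% of all tested probe sets), 5 with lower and 1 with higher means on LZ61 to LZ63. Differences were negative in 28 of the 40 genes and in 3881 of all 7453 tested probe sets. The median was -0.08 for the 40 genes, against -0.01 for all tested probe sets. In the core, 12 of 14 were negative, and the median was -0.17. The base had a median of -0.12, the lid -0.07, the chaperones -0.05 and the activators -0.0038. Apart from Psma2, 0 of these genes passed the test.

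Among the beta subunits the protease sites are carried by Psmb5, Psmb6 and Psmb7, of chymotrypsin-like, caspase-like and trypsin-like activity. Psmb5 read 1555 ± 156 (SD, n = 5) at 24 to 26 weeks and 1469 ± 235 (SD, n = 7) at 42 weeks. Its lowest signals, 1228 and 1049.8, were on LZ61 and LZ62, while LZ63 read 1550.5. A dimmer Psmb5 probe set read 312 ± 70.0 and 273 ± 83.1. Psmb6 read 1456 ± 104 and 1502 ± 183, and Psmb7 read 1286 ± 114 and 1279.6 ± 186. The log2 differences of these 3 genes between the time points were -0.09, 0.04 and -0.02, less than their standard errors of 0.10 to 0.12. Promoter windows of Psmb5 and Psmb6 are shown because these genes carry protease sites and the element core lies close to their transcript start. Each holds 30 bases on either side of the core, in capitals, from chr14:54618004-54618072 (minus strand) and chr11:70525318-70525386 (plus strand) of GRCm38.p6, credited to RefSeq.
Psmb5: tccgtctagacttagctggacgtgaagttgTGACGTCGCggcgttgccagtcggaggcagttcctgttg
Psmb6: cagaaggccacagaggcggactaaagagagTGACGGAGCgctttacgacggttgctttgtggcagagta
The core begins 47 bases before the transcript start used for Psmb5 and 9 bases before the one used for Psmb6. In Psmb6 the annotated start of the gene, 70525324, lies upstream of the core. Neither gene was called in any of the 3 comparisons.

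Psmb2, a beta subunit without a protease site, was, like Psma4, lowest on the AJ arrays. It read 1118 on AJ1, 1007 on AJ2 and 1103 on AJ4, but 1402 on LZ2 and 1609 on LZ3. At 42 weeks it read 1805.5, 1642, 1764 and 2047 on LZ22 to LZ25, and 1679.5, 1454 and 1707 on LZ61 to LZ63. The AJ arrays lay under all others, while LZ3 lay within the range of the later arrays. The means were 1248 ± 250 (SD, n = 5) and 1728 ± 180.2 (SD, n = 7), a log2 difference of 0.49 with a standard error of 0.12 that did not pass the test (limma adjusted p = 0.104). Between the AJ and LZ arrays at 24 to 26 weeks the difference was -0.48 with a standard error of 0.13 (adjusted p = 0.073). Against LZ2 and LZ3 alone the time points differed by 0.20 (adjusted p = 0.981), and against the AJ arrays alone by 0.68 (adjusted p = 0.00571).

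Of the remaining beta subunits, which are structural, the groups overlapped in all 3 and log2 differences between the time points lay between -0.08 and 0.12. Psmb1 read 2181 ± 215 and 2193 ± 171 (SD, n = 5 and 7), and a dimmer probe set of this gene read 1527 ± 77.0 and 1474 ± 262. On LZ61 to LZ63 these probe sets were lower than on LZ22 to LZ25 by unequal amounts, a log2 difference of -0.16 for the brighter (adjusted p = 0.379) and -0.42 for the dimmer (adjusted p = 0.0975). Psmb3 read 2684 ± 233 and 2914 ± 267. Psmb4 read 3516 ± 296 and 3333 ± 248, and its standard error on the log2 scale was 0.09.

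In the base, the ATPases Psmc1, Psmc2, Psmc3, Psmc5 and Psmc6 were measured, and 0 were called in each comparison. Of all tested probe sets, 0.0805% were called between time points, 2.5% between AJ and LZ arrays and 1.5% between LZ61 to LZ63 and LZ22 to LZ25. Psmc1 had the smallest p between the time points: its signal was 1228 ± 41.4 (SD, n = 5) and 1106 ± 92.1 (SD, n = 7), a log2 difference of -0.15 with a standard error of 0.09 (limma adjusted p = 0.421). Its lowest reading, 942, was on LZ61. Psmc2 read 1995 ± 213 and 1786 ± 131, and Psmc6 read 3385 ± 550.3 and 3343 ± 479.

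Psmc5 had the largest positive difference of any member between the AJ and LZ arrays. It read 908 on AJ1, 978 on AJ2 and 1214 on AJ4, against 585 on LZ2 and 707 on LZ3. The difference of 0.67 on the log2 scale (standard error 0.19) did not pass the test (limma adjusted p = 0.0828). The later arrays lay between, at 743 to 859, save for 548 on LZ25. Between the time points Psmc5 differed by -0.19 (adjusted p = 0.614).

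Psmc3 had 3 tested probe sets, which moved in different directions. Between AJ and LZ arrays the brightest, 93735_f_at, differed by -0.26 (adjusted p = 0.306), from 1285 ± 6.51 (SD, n = 2) on LZ2 and LZ3 to 1075 ± 107 (SD, n = 3). The next, 93734_i_at, differed by 0.38 (adjusted p = 0.237), from 624 ± 80.2 to 814 ± 85.4, and the dimmest by 0.05. The direction for this gene is therefore uncertain, and 0 of the 3 passed the test.

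Psmd1, a scaffold of the base, and Psmd4, a receptor for ubiquitin chains, were lower on average on the AJ arrays. Psmd1 read 1402 ± 101 (SD, n = 3) on AJ arrays and 1715 ± 231 (SD, n = 2) on LZ2 and LZ3. Psmd4 read 2135.5 on AJ1, 1899 on AJ2 and 1636.5 on AJ4, against 2316 on LZ2 and 2493 on LZ3. The log2 differences were -0.29 (limma adjusted p = 0.261) and -0.35 (adjusted p = 0.238). Between the time points Psmd4 differed by 0.15 (adjusted p = 0.57).

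In the lid, Psmd11 was the one gene called in the comparison of AJ with LZ arrays at 24 to 26 weeks, 1 of 40 genes (2.5%, the same percentage as the 2.5% of all tested probe sets called). Psmd11 is a scaffold of the lid that also touches the core and the base. Its brightest probe set, 94796_at, read 1512 on AJ1, 1171 on AJ2 and 1076 on AJ4, against 2363 on LZ2 and 2274 on LZ3. All later arrays read between 2224 and 2533, so the AJ arrays stood alone. Means were 1253 ± 229 (SD, n = 3) and 2318 ± 62.5 (SD, n = 2), a signal 1.87-fold lower on AJ arrays. On the log2 scale this was -0.90 (standard error 0.14, 95% interval -1.20 to -0.60; limma adjusted p = 0.00917). An exact permutation test of 3 against 2 arrays cannot go below 0.1, which it gave. The call was lost without LZ2, at a difference of -0.88 (adjusted p = 0.0649), and without LZ3, at -0.93 (adjusted p = 0.106). Each of these leaves 1 array on the LZ side, which is then assumed to vary like the other groups.

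The other probe sets of Psmd11 did not show this. Probe set 160305_at read 674, 635 and 638 on the AJ arrays and 619 and 601.5 on LZ2 and LZ3, and over all 12 arrays it stayed between 582 and 696. Its standard deviation of 0.08 on the log2 scale was the smallest of the 46 member probe sets, and its difference between AJ and LZ arrays was 0.09 (limma adjusted p = 0.786). The dim 160304_r_at read 92.1, 175.6 and 215 on the AJ arrays and 154.9 and 174.9 on LZ2 and LZ3 (log2 difference -0.12, adjusted p = 0.902). A direction for Psmd11 as a gene is therefore uncertain. The comparison of time points shares the AJ, LZ2 and LZ3 arrays with this one: 94796_at differed by 0.58 there (adjusted p = 0.166), by 0.94 against the AJ arrays alone and by 0.04 against LZ2 and LZ3 alone.

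**Figure D4:**
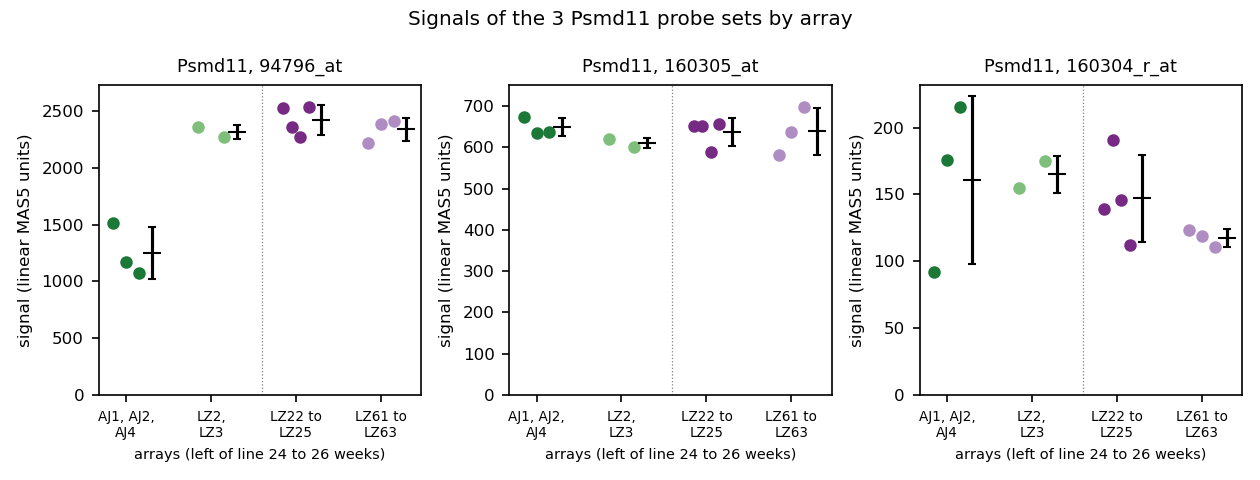
Signal (y axis, linear) of the 3 Psmd11 probe sets on each array (points), grouped along the x axis by run day, with mean and SD as black bars. The left probe set is at 1076 to 1512 on AJ1, AJ2 and AJ4 and at 2224 or more elsewhere, while the middle one stays between 582 and 696 on all arrays.

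The AJ and LZ arrays of 24 to 26 weeks also differed in tissue markers, whose part in these results was not tested. The sum of 7 interferon gamma response genes was 10534 to 13126 on the AJ arrays, and 5295 and 4685 on LZ2 and LZ3. Type 2 cell markers summed to 38356 to 40454 on the AJ arrays, and to 54772 and 65270.3 on LZ2 and LZ3. Of the 40 proteasome genes, 7 (17.5%) had an unadjusted p under 0.05 here, against 17.9% of all tested probe sets. Psma4, Psmb2, Psmc6, Psmd1, Psmd4 and Psmd11 were lower and Psmc5 higher on the AJ arrays. The median difference over the 40 genes was 0.03, against 0.04 for all tested probe sets.

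The other lid genes gave differences on both sides of zero between the time points. Psmd12 had the lowest, with signals of 534 to 883 at 24 to 26 weeks and 440.4 to 689 at 42 weeks. It differed by -0.33 on the log2 scale (standard error 0.14, limma adjusted p = 0.293). Psmd6 read 1561 ± 193 (SD, n = 5) and 1293 ± 287 (SD, n = 7), with 737 on LZ62 the lowest. Psmd13 read 1022 ± 155 and 1197 ± 141, and its log2 difference of 0.23 did not pass the test (adjusted p = 0.377). Psmd14, the enzyme that cuts ubiquitin from substrates, read 768 ± 99.4 and 734 ± 66.1, and its partner Psmd7 read 1888 ± 253 and 1854 ± 395. Psmd3 read 1326 ± 130 and 1374 ± 166, and Psmd8 read 769 ± 69.8 and 767 ± 98.2.

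Assembly chaperones are not part of the finished proteasome. Psmg1, which pairs with Psmg2 on the alpha ring, read 215 to 245 at 24 to 26 weeks and 248.7 to 304 at 42 weeks, so that the groups did not overlap. The means were 232 ± 12.9 (SD, n = 5) and 283 ± 23.9 (SD, n = 7), a log2 difference of 0.28 with a standard error of 0.11 that did not pass the test (limma adjusted p = 0.265). It was between 0.24 and 0.33 in the 26 alternative settings that gave a value. Psmg2 differed the other way, by -0.32 with a standard error of 0.24 (adjusted p = 0.567). Its later readings were split by day: 315, 312, 280.4 and 363 on LZ22 to LZ25, and 211, 110.2 and 232 on LZ61 to LZ63. The sets differed by -0.85 on the log2 scale (standard error 0.22), which did not pass the test (adjusted p = 0.0677).

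Psmg4, which with Psmg3 takes part in building the alpha ring, was the gene with a higher mean on LZ61 to LZ63 among the 6 at an unadjusted p under 0.05. It read 547 ± 81.8 (SD, n = 3) there and 393 ± 31.9 (SD, n = 4) on LZ22 to LZ25 (limma adjusted p = 0.111). Psmg3 read 444 ± 91.9 (SD, n = 5) at 24 to 26 weeks and 421 ± 90.7 (SD, n = 7) at 42 weeks on its brighter probe set, 162356_r_at. Its dim probe set, 94543_at, was not tested and read lower at 42 weeks, at 82.3 ± 28.6 against 164 ± 42.0. The groups overlapped there, at 56.0 to 132.6 and 127.4 to 234.1. A direction for Psmg3 as a gene is therefore uncertain. Psmd5, Psmd9 and Psmd10 help to build the base. Psmd5 kept within 1282 to 1383 on the earlier arrays but ran from 950.1 on LZ61 to 1851.5 on LZ25 at 42 weeks. Psmd9 read 539 ± 38.8 and 582 ± 91.5, and Psmd10 read 213 ± 20.3 and 185 ± 33.1.

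Of the activators, Psme1 is the alpha subunit of the cap that interferon gamma induces. It read 2821, 2728 and 2774.5 on the AJ arrays, 2364 on LZ2 and 2815 on LZ3, and 2232 to 2917 at 42 weeks. The difference between time points was -0.05 with a standard error of 0.09 (limma adjusted p = 0.849), and that between AJ and LZ arrays 0.11 with a standard error of 0.13 (adjusted p = 0.753). Psme3, which forms a cap in the nucleus, read 586 ± 82.3 (SD, n = 5) and 582 ± 166 (SD, n = 7), with 945 on LZ24 the highest. Psme4, a large single-chain cap, read 602 on AJ1 and 591 on LZ63 but 304 to 452 on the other arrays, and differed by -0.14 between time points (adjusted p = 0.713).

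The immunoproteasome subunits are set beside Psme1 for the AJ and LZ arrays, and 0 of them passed the test (2.5% of all tested probe sets did). Psmb8 read 3537, 3254.5 and 2966 on the AJ arrays and 2331 and 2413 on LZ2 and LZ3, a log2 difference of 0.45 (limma adjusted p = 0.237). Psmb9 read 1949 to 2061 on the AJ arrays and 1367 and 1347 on LZ2 and LZ3, a difference of 0.57 (adjusted p = 0.185). Psmb10 differed by 0.19 (adjusted p = 0.693). The AJ arrays lay above LZ2 and LZ3 in Psmb8 and Psmb9 and overlapped with them in Psmb10. On LZ63 all 3 had their lowest signals of the 12 arrays, 1845, 1203.5 and 1423, and the 7 interferon gamma response genes also had their lowest sum, 3916. LZ63 is the array with muscle and squamous transcripts, on which 21.1% of all tested probe sets were lowest. Between the time points the adjusted p was 0.917 for Psmb8, 0.922 for Psmb9 and 0.987 for Psmb10.

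**Figure D5:**
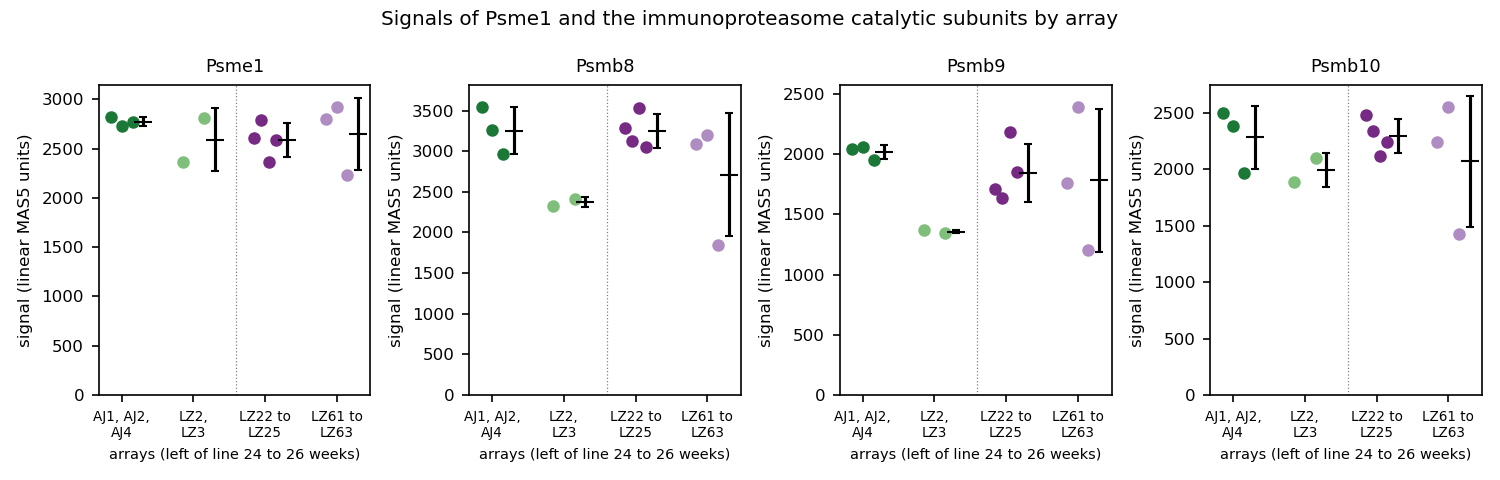
Signal (y axis, linear) of Psme1, Psmb8, Psmb9 and Psmb10 on each array (points), grouped along the x axis by run day, with mean and SD as black bars. Psmb8 and Psmb9 are lower on LZ2 and LZ3 than on the AJ arrays, Psme1 is between 2232 and 2917 throughout, and LZ63 is the lowest array in all 4 panels.

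Psme3ip1, a member by its symbol that binds Psme3, read 518.5 to 662 at 24 to 26 weeks and 665 to 768 at 42 weeks. The groups did not overlap, yet the log2 difference of 0.24, with a standard error of 0.09, did not pass the test (limma adjusted p = 0.269). Psmc3ip, which acts in meiotic recombination, was too dim to be tested, at 6.8 to 40.2.

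Neighbours of the proteasome in the same pathway were taken from a list of 37 genes: the immunoproteasome subunits, proteasome-bound proteins such as Pomp and Usp14, ubiquitin shuttles such as Rad23b, ubiquitin and its ligating enzymes, the unfoldase Vcp, and regulators such as Nfe2l1. Of these, 23 had a probe set with 1 gene and 22 were bright enough to be tested. Between the time points 0 of the 22 were called in either direction (0.0805% of all tested probe sets were), and their median log2 difference was -0.08, against -0.04 for all tested probe sets. Between AJ and LZ arrays 0 were called (against 2.5%), with a median of 0.15 against 0.04. Between LZ61 to LZ63 and LZ22 to LZ25 0 were called (against 1.5%), with a median of 0.02 against -0.01.

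Among the 55 member probe sets, 9 were too dim to be tested, with signals between 0.6 and 234.1. They left the ATPase Psmc4, the base scaffold Psmd2 and Psmc3ip without a tested probe set. The other dim ones belonged to Psmb1, Psmb4 (2 probe sets), Psmc5, Psme1 and Psmg3, each of which had a brighter probe set. Psmc4 read 6.9 to 108.2 and Psmd2 11.1 to 74.6. Both subunits are needed in every proteasome, and low signals of this kind do not show that the genes are silent.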

How the data were processed

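The authors deposited 1 table of MAS5 intensity values (Affymetrix MG_U74Av2, biotin-labelled RNA after Trizol extraction, per the labels); the tool is named in the submitters' processing notes, and the sources used here give neither its version nor its scaling target. It held 12488 probe sets, of which 66 controls were removed. Of the other 12422, 10833 had 1 gene symbol in the platform annotation, 396 several and 1193 were not listed, and 10817 matched a RefSeq gene (GRCm38.p6). The deposited intensity values were not scaled again and were taken to log2 with no pseudocount. Probe sets with a mean under the 40th percentile were left out, which left 7453. Each gene was represented by its brightest probe set on average.

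Time points were compared with limma 3.58.1 (R 4.3.3, statmod 1.5.0; lmFit, eBayes with trend and robust), as two-sided tests adjusted over all 7453 by Benjamini-Hochberg. AJ against LZ arrays and LZ61 to LZ63 against LZ22 to LZ25 came from 1 fit with the 4 number ranges of the titles as groups. These ranges equal the 4 run days, and run day as a random block had a consensus correlation of 0.227. The number of arrays limits the precision, and p-values cover only the variation among these arrays, which may be technical. The comparisons were tried on simulated data, with 20 data sets of 7453 probe sets for each comparison and 200 changed per data set. Simulated arrays varied independently, with no effect shared within a run day, so the recovery may be overstated for these data. Of 1.5-fold changes, 52.5% were recovered between time points, 23.4% between AJ and LZ arrays and 38.9% between LZ61 to LZ63 and LZ22 to LZ25. A change of this size could thus be missed, and the lack of a call does not show that a gene was unchanged. The members, classes and lists were chosen with earlier results of these data known. Named by rule were members past a test with all their probe sets, Psma4, of each class the gene with the smallest p by time point and by prefix, the steadiest and the most variable gene, and Psme1 beside Psmb8 to Psmb10; other members were named to account for them. Alternatives covered scaling, filters, a pseudocount of 28.7, the variance model, array weights, blocks, subsets, left-out arrays and an exact permutation test.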

Additional observations from a re-analysis of the deposited data

Results flagged for a closer look

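Among 26 groups of samples checked for the 13 genes named by rule, 2 held a sample far from the others, and chance alone flags about 1 in 20. Psmc5, an ATPase of the base, read 547.9 on LZ25, while the other arrays at 42 weeks read 742.8 to 858.6. On the log2 scale the gap was 0.68 of the range of the group. Psme1, an activator subunit, read 2363.7 on LZ2, while the other arrays at 24 to 26 weeks read 2728 to 2821. That gap was 0.81 of the range, also on the log2 scale.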

How the results depend on the processing

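The count of member genes called between the time points, 0 as reported, was 1 with quantile normalization (0.228% of all probe sets tested there were called), 1 with a 60th percentile filter (0.161%), 1 with LZ22 to LZ25 as the later arrays (0.188%), 3 with the AJ arrays as the earlier ones (5.92%), 3 with array weights (7.38%) and 6 at an unadjusted p under 0.05 (14.7%). It was 0 to 2 when each array was left out in turn. Between AJ and LZ arrays the count, 1 as reported, was 2 with equal medians (3.43%), 5 with array weights (10.4%), 0 by the exact permutation test (0%), 7 at an unadjusted p (17.9%) and 0 to 2 with 1 array left out. Between LZ61 to LZ63 and LZ22 to LZ25 it was 1 as reported, 3 with equal medians (3.92%), 6 at an unadjusted p (19.8%), and 0 with quantile normalization (1.25%), no filter (0.362%), the plain variance model (0.309%), without LZ22, LZ24 and LZ63 (0.0403%), by the exact test (0%), and with 1 array left out (0 to 0). With 3 against 2 arrays the exact test cannot pass, as its lowest possible p is 0.1. With 3 against 4 arrays its lowest possible p, 0.0286, became 0.265 after adjustment. Over the settings, calls among all probe sets ranged from 0 to 550, 0 to 776 and 0 to 292. The median difference of the 40 genes ranged from -0.04 to 0.06 for time and from -0.07 to 0.06 for AJ against LZ. At 42 weeks it ranged from -0.15 to -0.05, so its sign was the same over the settings there alone. The settings reuse the same arrays, so this does not settle the sign. The cause was not tested. No paired analysis was possible because the labels give no replicate numbers.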
